A study of Mus musculus with 3 samples.

Results

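Lcn2 encodes lipocalin 2, a small secreted protein that binds iron-carrying siderophores. It was followed across the 21 cell clusters of the dissociated mouse retina, as 1 gene of the 18545 in the deposited matrix. The gene was chosen because of its values in these libraries, so its levels in the 2 glial clusters are given as descriptions, with no test. Lipocalin 2 keeps iron from bacteria during an acute phase response, and its transcription in many tissues is switched on by cytokine signals that act through NF-κB, C/EBP and STAT3 factors. In the brain and retina, Lcn2 is known as a transcript of reactive astrocytes and reactive Müller glia (MG), the radial glia that span the retina and recycle glutamate and visual chromophore.

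The cells came from 3 groups, each 1 droplet library pooled from several mice aged 8 weeks and reared in the dark. The WT library was made from retinas of C57BL/6J mice of both sexes, which were given no drug and ate the control chow. The rd10-vehicle library came from female rd10 mice, which carry a point mutation in the rod phosphodiesterase gene Pde6b and lose their rods and then their cones, and which ate the same chow without drugs. The rd10-TMB library came from female rd10 mice fed chow with tamsulosin, an α1-adrenergic blocker, metoprolol, a β1-adrenergic blocker, and bromocriptine, a dopamine D2-like agonist. The labels give 1 retina from each of 4 mice per library, while the study's text states smaller numbers of rd10 mice. Since each group was 1 library, differences between mice, sexes, libraries and conditions cannot be told apart, no p-value was computed, and every interval below is a 95% interval of counting error in unique molecular identifiers (UMIs) or cells. A share with a UMI also cannot separate cells that lack a transcript from cells in which it was missed.

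The libraries held 4478 WT cells, 5952 rd10-vehicle cells and 4812 rd10-TMB cells, with 18882951, 37002532 and 29192530 UMIs. Between 7 and 10 cell barcodes were shared by each pair of libraries. Cluster 0 carried 15 of 15 MG markers, 6 of them among its 10 leading genes, and is called MG-like. Cluster 12 carried 8 of 10 astrocyte markers, among them Pax2, S100b, Pdgfra and Gfap, and is called astrocyte-like. Among the other clusters, cluster 1 was rod-like, cluster 4 cone-like, cluster 2 rod bipolar-like, cluster 11 endothelial-like and cluster 13 microglia-like by the same rule, and cluster 18 stayed unnamed. Cluster 11 carried 8 of 8 pericyte and mural markers beside 8 of 8 endothelial ones, so other vessel cells may be in it.

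In mm10 the gene lies on the minus strand of chromosome 2, from base 32384637 to base 32387739 in RefSeq, and the main GENCODE transcript has 6 exons. The sequence ahead of its start is shown because transcripts of the factors that act on it were measured in the same cells. The window runs from the upstream limit of the promoter table to the more upstream of the RefSeq and GENCODE starts, which lie 58 bases apart, and part of it is an exon of a longer alternative transcript. The capitals mark a match to TTGCNNAA, a form of the C/EBP motif, 216 bases ahead of the RefSeq start.
Lcn2 chr2:32387798-32387989 minus strand GRCm38.p6 (RefSeq): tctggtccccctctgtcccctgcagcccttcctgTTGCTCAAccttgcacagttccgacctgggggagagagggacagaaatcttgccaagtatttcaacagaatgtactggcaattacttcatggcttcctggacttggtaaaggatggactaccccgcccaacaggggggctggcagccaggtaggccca

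On both strands, TTGCNNAA was found in 7.84% of the 32851 windows of this length in the promoter table. The STAT motif TTCNNNGAA and the NF-κB consensus were not found in these 192 bases, and occurred in 5.56% and 3.03% of all windows. A match is a description of letters and not of binding.

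Lcn2 was a transcript of glia in the rd10 libraries. WT cells held 212 Lcn2 UMIs in 35 cells, rd10-vehicle cells held 12706 UMIs in 798 cells, and rd10-TMB cells held 5343 UMIs in 365 cells. The MG-like cluster took 95.3% of these UMIs in rd10-vehicle and 96.5% in rd10-TMB, although it made up 41.9% and 36.3% of the cells. In WT it took 62.3% of the UMIs with 11.8% of the cells. Outside clusters 0, 12 and 18, the rd10-vehicle library had 119 Lcn2 UMIs and the rd10-TMB library had 56.

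Levels are given as Lcn2 UMIs per 1000000 UMIs of the cluster (CPM). The MG-like level was 39.8 CPM in WT (33.3 to 47.2), against 545 CPM in rd10-vehicle (536 to 555) and, for the treated library, 307 CPM (299 to 316). The rd10-vehicle level was thus 13.7-fold that of WT, a log2 ratio of 3.77 (3.53 to 4.04). The rd10-TMB level was 7.73-fold that of WT, a log2 ratio of 2.94 (2.70 to 3.21). The WT value rests on 9 positive cells, and these ratios depend on which WT cells are used. Against the 245 WT cells with an Xist UMI and none from the Y chromosome, closer in sex to the female rd10 mice, they were 5.40 and 4.57, and without the 5% of cells with the most UMIs they were 4.73 and 3.64. Between the rd10 libraries, the rd10-TMB level was lower by 1.77-fold, with a log2 ratio of -0.83 (-0.87 to -0.78), and lay between those of WT and rd10-vehicle. Among the 12404 genes with at least 50 UMIs over the pair in these cells, 4.17% stood 2-fold or more above WT in rd10-vehicle and 2.79% stood 2-fold or more below it, and Lcn2 ranked 25th from the top. For rd10-TMB against WT, 3.12% of 11945 genes were higher by that much and 2.03% lower, and Lcn2 ranked 30th. A decrease of 2-fold or more from rd10-vehicle to rd10-TMB was seen for 0.323% of 13021 genes, and Lcn2, which did not reach it, ranked 90th from the bottom.

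**Figure D1:**
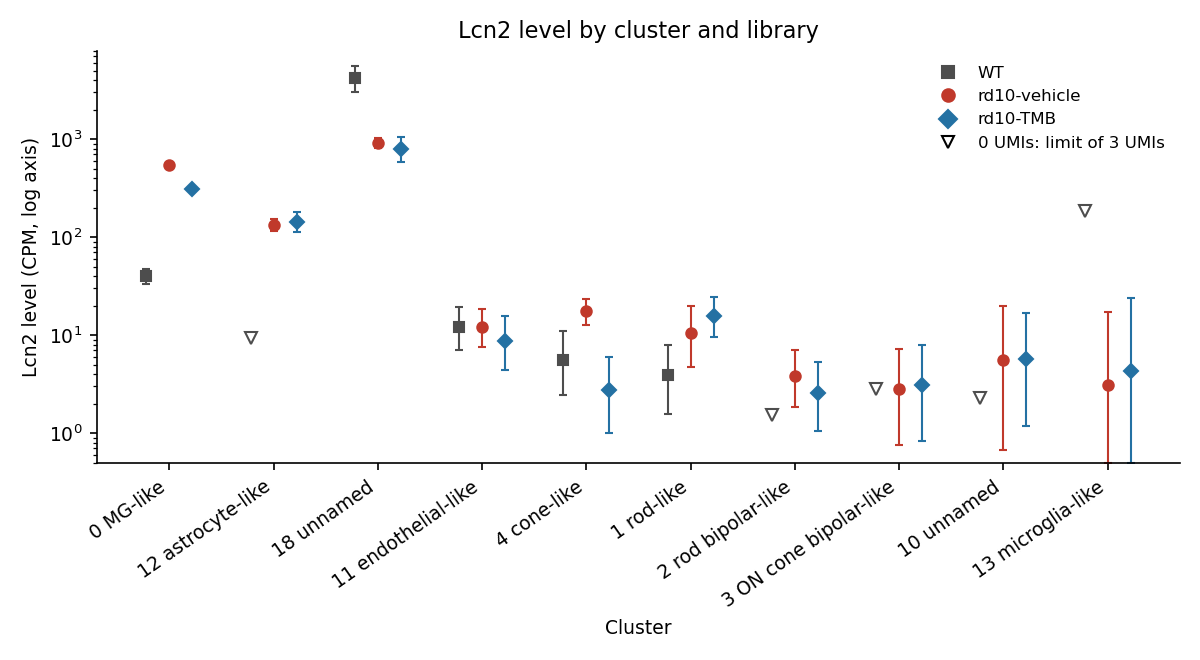
Lcn2 level in CPM (log axis) in 10 of the clusters, for the WT, rd10-vehicle and rd10-TMB libraries, with bars for 95% Poisson intervals, cut at the foot of the axis in microglia-like cells, and open triangles where no UMI was found, drawn at the level of 3 UMIs. The MG-like level runs from 39.8 CPM in WT to 545 CPM in rd10-vehicle with rd10-TMB at 307 CPM, and cone-like cells reach 17.5 CPM in rd10-vehicle.

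Among clusters with at least 50 cells in a library, the order in rd10-vehicle ran from 545 CPM in MG-like cells to 134 CPM (115 to 154) in astrocyte-like cells and then to 17.5 CPM (12.8 to 23.5) in cone-like, 12.2 CPM (7.64 to 18.5) in endothelial-like and 10.5 CPM (4.78 to 19.9) in rod-like cells. The last 3 intervals overlap. In WT, MG-like cells were followed by endothelial-like cells at 12.2 CPM (7.09 to 19.5), cone-like cells at 5.61 CPM (2.42 to 11.1) and rod-like cells at 3.89 CPM (1.57 to 8.02), and here too the intervals below the MG-like level overlap. In rd10-TMB, MG-like cells were followed by rod-like cells at 15.8 CPM (9.67 to 24.4) and endothelial-like cells at 8.74 CPM (4.37 to 15.6), whose intervals overlap. Cone-like cells at 2.76 CPM (1.013 to 6.01) lay below the rod-like interval. Endothelial-like cells, which line the vessels, thus held nearly the same level in WT and rd10-vehicle, with a log2 ratio of -0.02 (-0.98 to 1.006) between them.

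Free RNA in droplet libraries gives UMIs in cells that do not transcribe a gene, and rod bipolar-like cells served as the level of that background. In these interneurons an Lcn2 UMI was found in 0 of 405 WT cells, which allows a share of up to 0.741%, in 9 of 729 rd10-vehicle cells (1.23%) and in 7 of 647 rd10-TMB cells (1.08%). The median depth of rod bipolar-like cells was 5032, 3638 and 4310 UMIs, against 6300, 8593.5 and 9454.5 UMIs in MG-like cells. The MG-like shares were 1.70% in WT (9 of 530 cells, 0.779 to 3.199%), 26.2% in rd10-vehicle (653 of 2492 cells, 24.5 to 28.0%) and 17.2% in rd10-TMB (300 of 1748 cells, 15.4 to 19.0%). After every cell was thinned to 1000 UMIs, the expected MG-like shares were 0.947%, 12.6% and 6.95%, and those of rod bipolar-like cells were 0%, 0.357% and 0.225%. Thinning left out 3 WT, 16 rd10-vehicle and 21 rd10-TMB cells of the MG-like cluster.

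Over the whole MG-like cluster, the libraries differed more in the number of cells with Lcn2 than in the amount in each. Cells with an Lcn2 UMI held means of 14.7, 18.5 and 17.2 Lcn2 UMIs in WT, rd10-vehicle and rd10-TMB. Of the log2 ratio between rd10-TMB and rd10-vehicle, the share of positive cells accounted for -0.61, the UMIs per positive cell for -0.11 and the difference in mean depth for -0.11. For rd10-vehicle against WT these parts were 3.95, 0.34 and -0.51.

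Within the MG-like cluster Lcn2 was spread very unevenly. The 9 positive WT cells held 1, 1, 2, 6, 11, 13, 26, 27 and 45 UMIs. In rd10-vehicle the median positive cell held 5 Lcn2 UMIs and the highest cell held 632, which was 1.93% of its UMIs from all genes. In rd10-TMB the median positive cell held 4 and the highest held 299, or 1.53% of its UMIs. Positive cells with 1 Lcn2 UMI made up 27.1% of the positive cells in rd10-vehicle and 33.0% in rd10-TMB. At least 10 Lcn2 UMIs were found in 233 rd10-vehicle cells, 9.35% of the cluster, and in 83 rd10-TMB cells, 4.75% of it. These cells carried 90.0% and 87.7% of the cluster's Lcn2. In rd10-vehicle 45 cells held 50% of the UMIs, and in rd10-TMB 18 cells did. The ratio of variance to mean over MG-like cells was 110 for Lcn2 in rd10-vehicle, the 6th highest of 12116 genes, and 105 in rd10-TMB, the 3rd highest of 11598 genes. The median gene had ratios of 1.14 and 1.17.

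**Figure D2:**
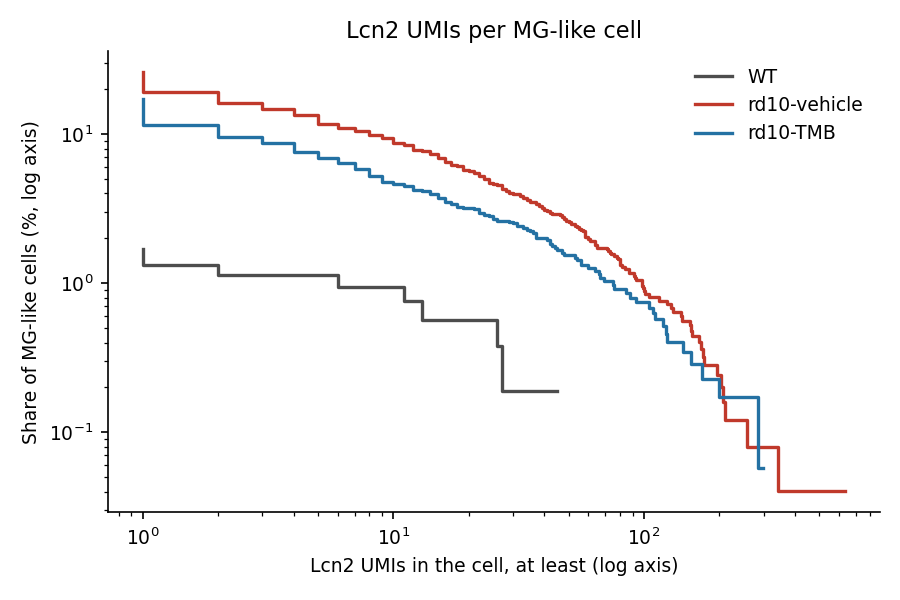
Share of MG-like cells (log axis) that hold at least the number of Lcn2 UMIs on the horizontal axis (log axis), for each library. The curves start at 1.70%, 26.2% and 17.2% of cells with 1 or more Lcn2 UMIs in WT, rd10-vehicle and rd10-TMB, and run out to 45, 632 and 299 UMIs.

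Lcn2-positive cells were deeper cells, and the libraries differed in depth, and the shares were also compared between cells of like depth. Under 6000 UMIs, 17.5% of the MG-like cells of rd10-vehicle (13.9 to 21.5%) and 8.01% of those of rd10-TMB (5.15 to 11.8%) had an Lcn2 UMI. From 6000 to under 9000 UMIs the shares were 13.5% and 6.74%, and from 9000 to under 12000 UMIs they were 32.3% and 15.7%. At 12000 UMIs or more they were 67.9% (62.0 to 73.4%) and 43.7% (38.2 to 49.3%). In each of the 4 ranges the rd10-TMB share was the lower one and the intervals did not overlap. The log2 ratio of the level, rd10-TMB over rd10-vehicle, was -0.39 (-0.68 to -0.11), -2.82 (-3.17 to -2.52), -1.71 (-1.82 to -1.61) and -0.94 (-0.998 to -0.88) from the shallowest to the deepest range. The amount per positive cell also differed within ranges of depth, in both directions. It was 4.51 Lcn2 UMIs in rd10-vehicle and 6.39 in rd10-TMB under 6000 UMIs, 9.54 and 2.69 in the next range, then 13.9 and 9, and 37.2 and 28.3 in the deepest cells. The WT level also stood highest in its deepest cells, at 443 CPM (353 to 548) in 14 cells with 84 Lcn2 UMIs, against 2.07 CPM (0.251 to 7.49) in its 244 cells under 6000 UMIs. The part of depth in the spread of Lcn2 over cells was not tested.

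**Figure D3:**
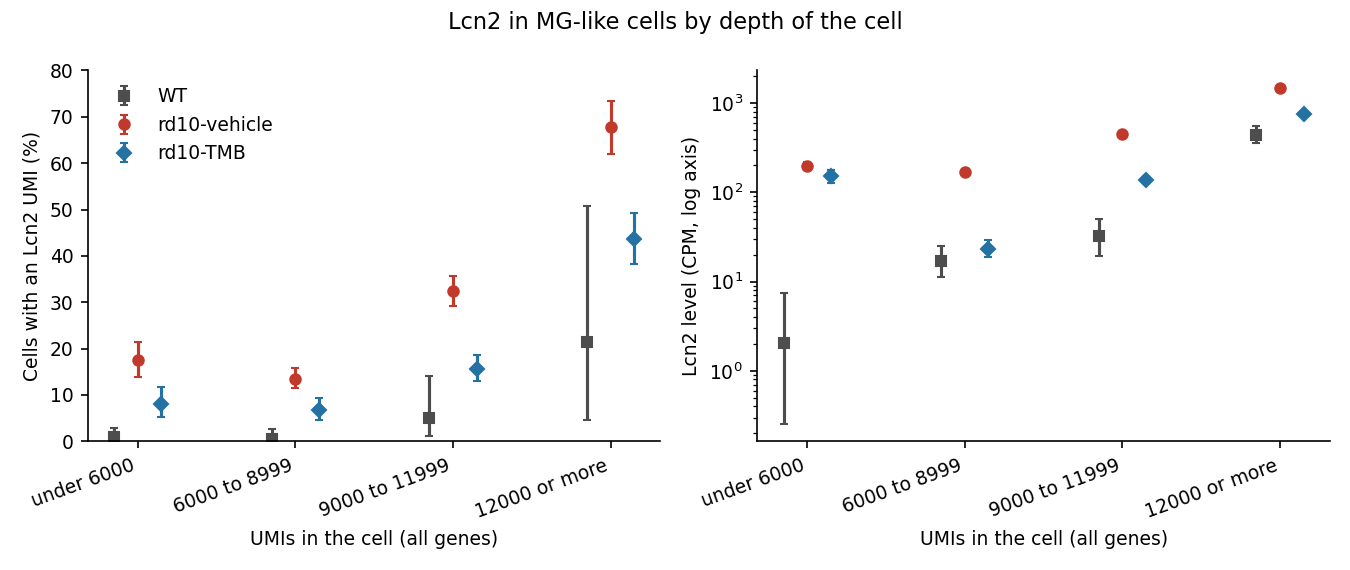
Share of MG-like cells with an Lcn2 UMI (left) and Lcn2 level in CPM (right, log axis) in 4 ranges of UMIs per cell, for each library, with 95% binomial and Poisson intervals. The rd10-TMB points lie below the rd10-vehicle points in each range, from 8.01% against 17.5% to 43.7% against 67.9%.

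Cells with more Lcn2 held more Gfap, A2m and Serpina3n and less Glul and Rlbp1, which are among the genes with the highest and lowest correlations with Lcn2 given below. Other listed genes of reactive glia followed Lcn2 little, such as Osmr with r of 0.07 and 0.06 over the cells of rd10-vehicle and rd10-TMB, or not at all, such as Fbln5 with -0.08 and -0.06. In rd10-vehicle, Gfap, the intermediate filament of reactive glia, was higher at each step, from 159 CPM in MG-like cells with no Lcn2 UMI to 317, 484, 636 and then 987 CPM in cells with at least 10. Over the same steps A2m, a protease inhibitor of the acute phase, went from 92.7 to 563 CPM, and Serpina3n, a secreted serine protease inhibitor, from 173 to 874 CPM. Glul, the glutamine synthetase that clears glutamate, went from 7638 to 3064 CPM, and Rlbp1, which carries visual chromophore, from 2410 to 1147 CPM. Apoe, a lipid carrier of MG, stayed between 24058 and 26267 CPM.

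The rd10-TMB cells differed in the same direction between the first and the last of these groups. With no Lcn2 UMI they held 79.5 CPM of Gfap and 8400 CPM of Glul, and with at least 10 they held 965 CPM of Gfap and 2897 CPM of Glul. Cells with at least 10 Lcn2 UMIs had median depths of 11715 UMIs in rd10-vehicle and 13968 in rd10-TMB, against 8175 and 9064.5 in cells with none.

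**Figure D4:**
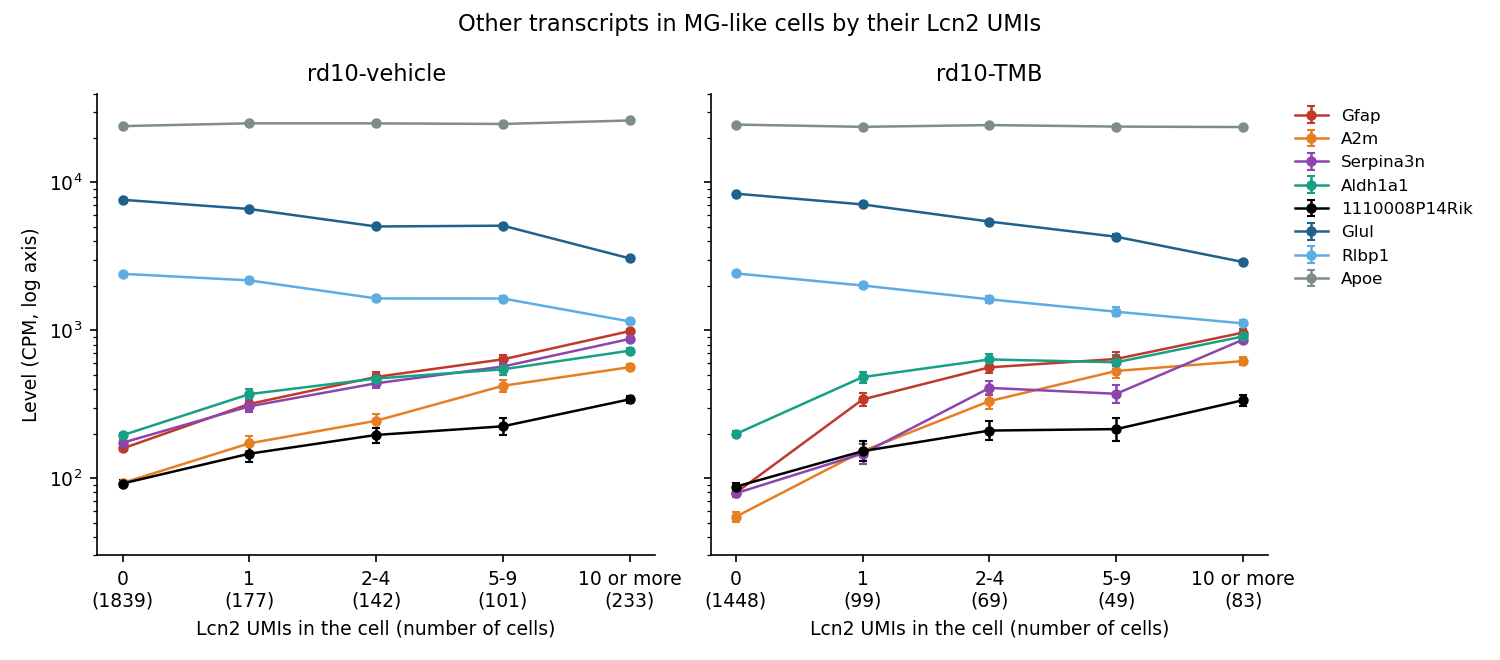
Level in CPM (log axis) of 8 transcripts in MG-like cells grouped by their own Lcn2 UMIs, with the number of cells in brackets and 95% Poisson intervals, in rd10-vehicle (left) and rd10-TMB (right). Gfap, A2m, Serpina3n, Aldh1a1 and 1110008P14Rik are highest in cells with 10 or more Lcn2 UMIs, Glul and Rlbp1 are lowest there, and Apoe is nearly level.

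Ranked by Pearson's correlation with Lcn2 over MG-like cells (ln of 1 plus UMIs per 10000, 2492 cells in rd10-vehicle and 1748 in rd10-TMB), the 10 most similar of 9776 genes began with A2m (r of 0.49 and 0.51 in the 2 libraries), Serpina3n (0.47 and 0.48) and Gfap (0.47 and 0.47). The correlations were taken within each library, and cells of a library share its pool of free RNA and span a range of depths. The median gene had a mean r of 0.02, and the 99th percentile of genes was 0.18. Then came Aldh1a1, an enzyme of retinoic acid synthesis (0.43 and 0.39), the calcium-binding protein gene Necab2 (0.39 and 0.43), 1110008P14Rik (0.42 and 0.38) and the interferon-induced Ifitm3 (0.38 and 0.40). Hspb1, a small heat shock protein, had r of 0.37 and 0.38, the metalloreductase Steap4 0.35 and 0.35, and Ifitm2 0.37 and 0.33. The 3 lowest were Glul (-0.51 and -0.49), Spc25 (-0.41 and -0.35) and Rlbp1 (-0.43 and -0.33). With Spearman's correlation, 8 of the 10 stayed among the first 10, and with cells of at least 3000 UMIs, 9 did.

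These companions of Lcn2 fell into 2 kinds by their level in the libraries. Gfap stood at 16.3 CPM in WT MG-like cells, against 339 CPM in rd10-vehicle and 223 CPM in the treated library, and its log2 ratio between rd10-vehicle and WT was 4.36 (4.00 to 4.80). Serpina3n had a ratio of 4.10 (3.76 to 4.51), A2m of 3.70 (3.32 to 4.16), Steap4 of 2.35 (1.59 to 3.56), Hspb1 of 1.97 (1.72 to 2.26) and Ifitm3 of 1.71 (1.58 to 1.84). By contrast, Aldh1a1 differed little between rd10-vehicle and WT, with a ratio of 0.30 (0.20 to 0.41), and between the rd10 libraries, with -0.02 (-0.07 to 0.04). Necab2 had ratios of 0.15 (-0.01 to 0.33) and 0.21 (0.12 to 0.29).

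The pattern was sharper when Gfap and Aldh1a1 were read together in the same cell, a split that was chosen after their values were seen. In WT, 12 MG-like cells, 2.26% of the cluster, had at least 1 Gfap UMI and at least 5 Aldh1a1 UMIs. These 12 cells held 131 of the 132 Lcn2 UMIs of the cluster, and 8 of the 12 were Lcn2-positive (66.7%, 34.9 to 90.1%). The corresponding cells made up 16.01% of the cluster in rd10-vehicle and 12.1% in rd10-TMB, held 74.9% and 77.4% of its Lcn2, and were positive in 67.4% (62.6 to 72.0%) and 68.2% (61.5 to 74.5%) of cases. These 3 intervals overlap, but the WT one is wide, the depth of the class differed between libraries, and both genes were picked because they followed Lcn2.

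In the rd10 libraries, each transcript went with Lcn2 without the other. With no Gfap UMI, the rd10-vehicle share was 6.17% of cells without Aldh1a1, 16.9% at 1 to 4 Aldh1a1 UMIs and 39.6% at 5 or more. With no Aldh1a1 UMI, the share was 17.9% in rd10-vehicle cells with Gfap and 22.2% in rd10-TMB cells with Gfap. For Aldh1a1 this was not seen in WT. Without Gfap, Lcn2 was in 0 of 56 WT cells with at least 5 Aldh1a1 UMIs, which allows up to 6.38% by the exact interval. It was in 1 of 158 WT cells with 1 to 4 Aldh1a1 UMIs and no Gfap (up to 3.48%). For Gfap the WT cells were too few to tell. None of the 1 and 4 cells that had Gfap with 0 or with 1 to 4 Aldh1a1 UMIs was positive, which allows up to 97.5% and 60.2%. In cells with neither, Lcn2 was found in 0 of 299 WT cells, which allows a share of up to 1.23% by the exact interval, in 52 of 843 cells of rd10-vehicle and in 24 of 758 cells of rd10-TMB (3.17%). In cells with Gfap and at least 5 Aldh1a1 UMIs, the level was 975 CPM (815 to 1156) for WT, 1706 CPM (1671 to 1741) for rd10-vehicle and 1210 CPM (1172 to 1248) for rd10-TMB. The log2 ratio of rd10-vehicle to WT within this class was 0.80 (0.56 to 1.07), against 3.77 in the whole cluster. Gfap, which defines the class, itself had a ratio of 4.36, and how far the split lowered the Lcn2 ratio was not tested. Between the rd10 libraries the Lcn2 ratio in this class was -0.50 (-0.55 to -0.44). Over the other 5 classes it ran from -2.10 (-2.44 to -1.80) to 0.07 (-0.07 to 0.21), the latter in cells with Gfap and 1 to 4 Aldh1a1 UMIs. The class was also the deepest, with median depths of 10053.5, 11167 and 12903 UMIs, against 5693, 7522 and 8542.5 UMIs in cells with neither transcript.

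**Figure D5:**
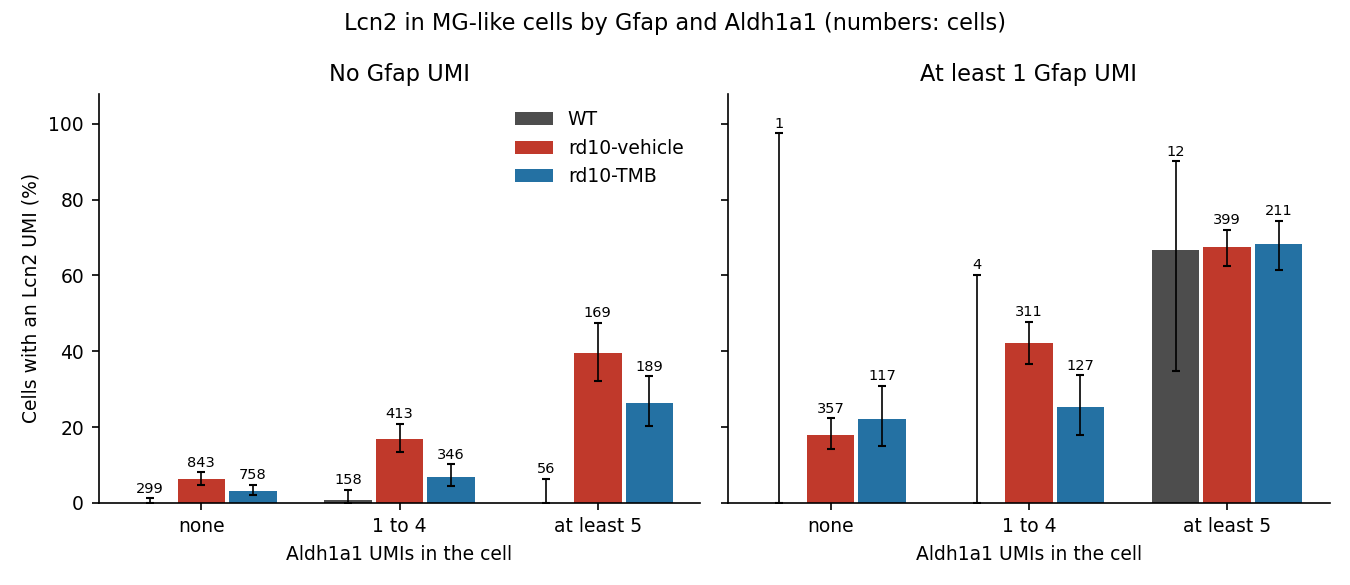
Share of MG-like cells with an Lcn2 UMI by the Aldh1a1 UMIs of the cell, without (left) and with (right) a Gfap UMI, for each library, with 95% binomial intervals and the number of cells above each bar. The highest shares are in cells with Gfap and at least 5 Aldh1a1 UMIs, at 66.7%, 67.4% and 68.2% in WT, rd10-vehicle and rd10-TMB.

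Lists of genes were next read in the MG-like cells. They held the signals that induce Lcn2 in other tissues and the receptors and partners of Lcn2. Other lists covered iron handling, the acute phase, reactive astrocytes, lipocalins and neutrophils. Over all lists together, 39 of 76 listed genes with enough UMIs stood 2-fold or more above WT in rd10-vehicle and 1 stood below it, where 4.17% and 2.79% of all genes did. Without the genes that had 0 UMIs in WT, which reached the minimum of 50 UMIs only through rd10-vehicle and so had to differ, 34 of 71 stood above WT, against 3.93% of all such genes. For rd10-TMB against WT the counts were 28 and 0 of 70, against 3.12% and 2.03% of all genes, or 25 of 67 above WT without the genes at 0 there, against 3.03%. Of the 34 and the 25 genes, 8 and 6 had under 10 UMIs in WT, and all these counts are given as descriptions. Between the rd10 libraries 0 of 79 were 2-fold higher in rd10-TMB and 2 were lower, against 0.169% and 0.323% of all genes. Of the cytokine genes on the list, 3 of the 9 in the matrix reached 50 UMIs over rd10-vehicle and WT, and 1 of the 3 was at least 2-fold higher in rd10-vehicle. That gene was Lif, a cytokine of the interleukin 6 family, with 7 UMIs in WT (2.11 CPM) and 243 in rd10-vehicle (10.9 CPM), a log2 ratio of 2.19 (1.31 to 3.71). Cntf, of the same family, had a ratio of 0.75 (0.56 to 0.96), and Clcf1 had 0.86 (0.31 to 1.58). Interleukin 1, interleukin 6 and tumor necrosis factor transcripts were nearly absent from these cells, with 2 Il1a, 2 Il1b, 5 Il6 and 0 Tnf UMIs in rd10-vehicle. Over the cells, Cntf had r of 0.32 and 0.30 with Lcn2 and ranked 16th.

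Of the receptors and adaptors for such signals, 13 reached 50 UMIs. In rd10-vehicle 8 of these were at least 2-fold higher than in WT, against 4.17% of all genes. None was 2-fold lower, against 2.79%, and the median log2 ratio was 1.30 against -0.06 for all genes. Without Il6ra, which had 0 WT UMIs, 7 of 12 were 2-fold higher with a median of 1.18, and 3 of the 7 had under 10 UMIs in WT. Tnfrsf1b had the largest ratio among those with a WT UMI, 2.52 (1.21 to 6.15) from 2 WT UMIs. Il1r1, the interleukin 1 receptor, went from 3.92 to 19.2 CPM, a ratio of 2.19 (1.51 to 3.22), and Osmr, the oncostatin M receptor, from 28.3 to 98.5 CPM, a ratio of 1.78 (1.5001 to 2.11). Il6ra had 0 WT UMIs, and its rd10-vehicle level was 3.19-fold that of 3 WT UMIs, with a lower limit of the log2 ratio of 1.33. The lowest ratios were those of Tlr3, at -0.39 (-0.66 to -0.09), and the CNTF receptor gene Cntfr, at -0.26 (-0.38 to -0.12). Between the rd10 libraries none of the 13 differed by 2-fold, and the median was -0.30 against -0.02 for all genes. Il1r1 had the lowest of these ratios, -0.87 (-1.14 to -0.62).

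The transcription factors and feedback genes behaved likewise, with 8 of 11 at least 2-fold higher in rd10-vehicle than in WT (4.17% of all genes) and a median of 1.26. Bcl3, a partner of NF-κB, had 2.29 (1.22 to 4.50) and the STAT3 inhibitor Socs3 2.08 (1.98 to 2.17). Cebpb went from 211 to 831 CPM, a ratio of 1.97 (1.87 to 2.09), and Cebpd from 1404 to 3359 CPM, a ratio of 1.26 (1.22 to 1.30). Stat3 had 1.18 (0.96 to 1.43). The NF-κB subunit genes Rela and Nfkb1 had the lowest ratios, 0.23 (-0.08 to 0.58) and 0.37 (0.00 to 0.80). Against rd10-vehicle, the ratio of rd10-TMB was below 0 for 11 of 11, none by 2-fold, with a median of -0.23 against -0.02 for all genes. The intervals of Socs3 (-0.03 to 0.02) and Nfkb1 (-0.35 to 0.04) included 0. Nfkbia, the NF-κB inhibitor that NF-κB itself induces, had -0.71 (-0.79 to -0.62), while Socs3 stood at 1181 and 1176 CPM in the 2 libraries. Over MG-like cells no correlation of these genes with Lcn2 was above 0.19. By the mean of the 2 libraries the highest was that of Nfkbia, with r of 0.19 and 0.12, which ranked 144th of 9776 genes. In rd10-TMB Cebpd had the highest, 0.17. Cebpb ranked 164th, Stat3 202nd, Cebpd 218th and Socs3 288th, while Nfkb1 ranked 1563rd and Rela 2509th.

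The genes for Lcn2 receptors and partners did not follow Lcn2 in MG-like cells. Slc22a17, a cell surface receptor of lipocalin 2, went from 137 CPM in WT to 95.9 CPM in rd10-vehicle MG-like cells, a log2 ratio of -0.52 (-0.66 to -0.36). Lrp2, the endocytic receptor megalin, had -0.11 (-0.45 to 0.27), and Bdh2, linked to a mammalian siderophore, had -0.02 (-0.26 to 0.24). Mmp9, whose protein forms a complex with lipocalin 2, had 0 UMIs in WT and 3 in rd10-vehicle. In MG-like cells none of the 3 tested genes differed by 2-fold in any pair of libraries. In the endothelial-like cluster 11, however, Slc22a17 stood at 68.0 CPM (55.1 to 83.2) in WT, above 15.0 CPM (9.86 to 21.8) in rd10-vehicle and 18.3 CPM (11.6 to 27.4) in rd10-TMB, and the interval of WT overlapped neither of the others. That cluster also carried pericyte and mural markers, and whether its mix of vessel cells differed between libraries was not tested. Across clusters with at least 50 cells, Slc22a17 was found in all of them and was highest in OFF cone bipolar-like cells (cluster 8), at 297, 355 and 320 CPM in WT, rd10-vehicle and rd10-TMB. Mmp9 was highest in WT in the amacrine-like cluster 5, at 44.2 CPM.

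Of 19 iron handling genes tested, 3 were at least 2-fold higher in rd10-vehicle than in WT, against 4.17% of all genes. None was 2-fold lower, against 2.79%, and the median log2 ratio was 0.10. The 3 higher genes were Hmox1, which frees iron from heme, at 2.86 (1.94 to 4.54), Steap4 at 2.35, and Trf, the iron carrier transferrin, at 1.79 (1.71 to 1.88). The Trf level was 319 CPM in WT, against 1107 in rd10-vehicle and 705 with treatment, and its ratio between the rd10 libraries was -0.65 (-0.68 to -0.62). The transferrin receptor Tfrc and Hfe had the lowest ratios to WT, -0.60 (-0.88 to -0.29) and -0.60 (-0.89 to -0.28). The ferritin genes Fth1 and Ftl1, which store iron, had 0.51 (0.48 to 0.54) and 0.44 (0.40 to 0.49). No iron gene differed by 2-fold between the rd10 libraries.

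Acute phase genes held 4 of 5 tested genes at least 2-fold higher in rd10-vehicle (4.17% of all genes), with a median of 3.36. Besides Serpina3n and A2m these were the complement genes C4b, from 20.2 to 211 CPM with a ratio of 3.36 (3.04 to 3.76), and C3, with 2.80 (2.14 to 3.78). Cp, the copper oxidase ceruloplasmin, had 0.12 (0.07 to 0.17). All 5 ratios of rd10-TMB to rd10-vehicle were below 0, none by 2-fold, with a median of -0.78 against -0.02 for all genes. Serpina3n had -0.82 (-0.89 to -0.76), C3 -0.93 (-1.14 to -0.73) and A2m -0.44 (-0.51 to -0.37). C4b had r of 0.04 and 0.15 with Lcn2 over the cells.

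In the list of transcripts shared by reactive astrocytes, 8 of 11 were at least 2-fold higher in rd10-vehicle (4.17% of all genes), with a median of 1.97. The lists for astrocytes after inflammation (A1) and after ischemia (A2) had 6 of 8 and 4 of 7. Without the genes at 0 UMIs in WT, the counts of these lists were 7 of 10 (leaving out Cxcl10), 6 of 8 and 1 of 4 (leaving out Ptgs2, Emp1 and Tm4sf1). Of all such genes 3.93% were higher. Most of the A2 count thus came from genes that reached 50 UMIs only through rd10-vehicle. Timp1, a metalloproteinase inhibitor, had 7 WT UMIs and 1933 in rd10-vehicle, a ratio of 5.18 (4.32 to 6.68). Cxcl10, an interferon-induced chemokine, had 0 UMIs in WT against 834 in rd10-vehicle and 173 with treatment, at least 41.6-fold and at least 11.4-fold higher. It was the 1 gene of this list with a 2-fold lower level in the treated library than in rd10-vehicle, at -1.86 (-2.11 to -1.63). The A1 gene Amigo2 went the other way, with -1.20 (-1.53 to -0.84) in rd10-vehicle against WT, and Fkbp5 had -0.83 (-1.08 to -0.56). Serping1, a complement inhibitor on the A1 list, had 3.14 (2.84 to 3.48) and r of 0.28 and 0.34 with Lcn2. In the A2 list, Tm4sf1 and Ptgs2 had 0 WT UMIs and stood in rd10-vehicle at 7.58-fold and 5.43-fold the level of 3 WT UMIs. The lower limits of their log2 ratios were 2.61 and 2.12. Ptgs2, a prostaglandin synthase, was the other gene with a 2-fold lower level in rd10-TMB, at -1.25 (-1.88 to -0.71).

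Of 19 other lipocalin genes listed, 4 were in the matrix and 2 were measured well enough in rd10-vehicle and WT, neither changed by 2-fold. Ptgds, a lipocalin that makes prostaglandin D2, had 0.45 (0.31 to 0.59). C8g had 9 UMIs in WT (2.71 CPM) and 41 in rd10-vehicle (1.85 CPM), a ratio of -0.67 (-1.62 to 0.67). Of 12 genes of neutrophils, which store lipocalin 2 in granules, 2 were in the matrix, and neither reached 50 UMIs in MG-like cells.

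The gene next to Lcn2 on chromosome 2 was among its companions over cells. 1110008P14Rik lies on the same strand from base 32379101 to base 32381915, 2721 bases past the 3′ end of Lcn2, and ranked 6th of 9776 by correlation. Its MG-like level was 52.4 CPM in WT (44.9 to 60.8), against 147 CPM in rd10-vehicle (142 to 152) and 125 CPM with treatment (120 to 131). Its log2 ratio to WT was 1.48 (1.26 to 1.71) in rd10-vehicle, and the ratio between the rd10 libraries was -0.22 (-0.30 to -0.14). From rd10-vehicle cells with no Lcn2 UMI to those with at least 10, its level went from 91.8 to 341 CPM. In cone-like cells of WT, rd10-vehicle and rd10-TMB, 1110008P14Rik stood at 116, 139 and 126 CPM.

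The other neighbors showed no such pattern. Ciz1 had r of 0.06 and 0.03, Dnm1 0.03 and 0.04, Ptges2, 8150 bases ahead of Lcn2, 0.05 and 0.03, Slc25a25 0.08 and 0.09, and Naif1 0.01 and 0.02. Of these 5, Slc25a25, a mitochondrial carrier, had a log2 ratio of 1.05 (0.50 to 1.78) in rd10-vehicle against WT, from 23 WT UMIs.

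Across 30 points, the 10 clusters with at least 50 cells in each of the 3 libraries, the genes whose level was ordered most like Lcn2 were Pxn (Spearman's correlation of 0.86), Pbxip1 (0.85), Vim (0.84), Cnpy2 (0.84) and Mgst1 (0.82), among 12888 genes with at least 200 UMIs. The points of 1 library share its depth and free RNA. Vim is the filament gene of MG and other glia.

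In astrocyte-like cells, which line the vessels and axons at the inner surface, Lcn2 was found in rd10 and not in WT. The 20 WT cells, with 324049 UMIs, held 0 Lcn2 UMIs, which allows a share of up to 15.0% and a level of up to 9.26 CPM. The rd10-vehicle library had 188 UMIs in 37 of 88 cells (42.0%, 31.6 to 53.0%), and the rd10-TMB library had 81 UMIs in 12 of 33 cells (36.4%, 20.4 to 54.9%). The levels of 134 CPM (115 to 154) and 144 CPM (114 to 179) were at least 14.4-fold and at least 15.5-fold that of WT, against 3 UMIs in the WT cells. On the log2 scale these bounds are 3.85 and 3.96. They were 3.44 and 3.07 without the 5% of cells with the most UMIs, and 3.37 and 3.47 against the 11 WT cells with an Xist UMI and none from the Y chromosome.

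Between the rd10 libraries the astrocyte-like log2 ratio was 0.12 (-0.29 to 0.49), an interval that lies above the -0.83 of MG-like cells, although the difference itself was not tested. With the mean of the cells' own levels in place of the summed level the ratio was -0.09, and without the cells of most UMIs it was -0.35, so its direction is not settled. The highest astrocyte-like cell held 37 Lcn2 UMIs in rd10-vehicle, or 19.7% of the total, and 32 in rd10-TMB, or 39.5%. The Gfap levels of these cells were 3743, 5149 and 4115 CPM in WT, rd10-vehicle and rd10-TMB, so Gfap was abundant in the WT cells where no Lcn2 UMI was found. In rd10-vehicle, astrocyte-like cells held 593 CPM of A2m, 1754 CPM of Serpina3n and 3.55 CPM of Aldh1a1, where MG-like cells held 195, 325 and 323 CPM.

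Cluster 18, with 3, 23 and 6 cells, led by Gpx3, Fbln1, Crhbp and Optc, had the highest Lcn2 levels of all. WT had 46 UMIs, all in 1 cell, rd10-vehicle had 294 UMIs in 11 cells (915 CPM, 813 to 1026), and rd10-TMB had 49 UMIs in 4 cells (801 CPM, 592 to 1059). With so few cells no order between libraries is read from it.

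Photoreceptors held few Lcn2 UMIs. In cone-like cells 8 UMIs were found in 8 of 278 WT cells, 45 UMIs in 42 of 542 cells of rd10-vehicle (7.75%, 5.64 to 10.3%) and 6 UMIs in 6 of 412 cells of rd10-TMB (1.46%, 0.536 to 3.14%). The log2 ratios of the level were 1.51 (0.54 to 2.94) for rd10-vehicle against WT and -2.48 (-4.19 to -1.43) for rd10-TMB against rd10-vehicle. Per 1000 UMIs of the MG genes Glul, Rlbp1 and Apoe in the same cells, cone-like cells held 55.9, 50.6 and 8.33 Lcn2 UMIs in WT, rd10-vehicle and rd10-TMB, while MG-like cells held 1.30, 16.4 and 8.99. The cone-like intervals in WT (24.2 to 110) and rd10-vehicle (36.9 to 67.7) lay above the MG-like values, and the one in rd10-TMB (3.06 to 18.1) included it. Rod bipolar-like cells held 12.1 (5.78 to 22.2) and 11.3 (4.55 to 23.3) in the rd10-vehicle and rd10-TMB libraries. After thinning to 1000 UMIs, the expected cone-like shares were 0.441%, 1.78% and 0.222%.

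Rod-like cells had 7, 9 and 20 UMIs in WT, rd10-vehicle and rd10-TMB, spread over 7, 9 and 18 cells. The log2 ratio of rd10-TMB to WT was 1.90 (0.72 to 3.51), and between the rd10 libraries it was 0.52 (-0.60 to 1.92). Per 1000 MG gene UMIs the rod-like values were 23.5 (9.44 to 48.4), 20.6 (9.42 to 39.1) and 35.6 (21.7 to 55.0), and in WT and rd10-TMB the interval also lay above the MG-like value. Microglia-like cells, the resident macrophages, held 0 Lcn2 UMIs in 6 WT cells, 1 in 52 rd10-vehicle cells and 1 in 30 rd10-TMB cells, so Lcn2 was not detectable above background there at this depth. In the interneuron clusters 3, 6, 7, 8 and 10, no library held more than 4 Lcn2 UMIs in a cluster.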

How the data were processed

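Single-cell RNA-seq was made from papain-dissociated retinas, with 1 pooled library per group. The authors aligned reads to mm10 with Cell Ranger 6.0.1 and clustered the cells with Seurat 3.2.2 and Harmony after removing doublets (Scrublet) and cells under 500 genes. The values the authors deposited are on a natural log scale, ln of 1 plus UMIs per 10000. From the deposited count of UMIs per cell, 100% of 32620606 entries were turned back into whole UMI counts (within 0.001), 85078013 UMIs in 15242 cells. The authors' tests over cells were not used.

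UMIs were summed per cluster and library and scaled to UMIs per 1000000 (CPM). Log2 ratios had a pseudocount of 1 UMI and exact conditional intervals, levels exact Poisson and shares Clopper-Pearson intervals (95%, SciPy 1.17.1). They cover counting error only. The limit for 0 was 3 counts. Cells are not replicates, so no test was run. A cluster name needed 3 markers at 2-fold and 20 CPM. Intervals were tried on simulated Poisson counts, the model they assume, and thinning against random draws. This checks the code and says nothing of the spread of Lcn2 between cells.

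Lcn2 and the gene lists were chosen with earlier results of these data known. Genes named are listed genes with at least 50 UMIs in cluster 0, the 10 highest and 3 lowest correlations among genes found in 5% of those cells, the 5 most like over clusters, and 3 neighbors on either side, with sex-linked genes left out of the rankings. Il1a, Il1b, Il6, Tnf and Mmp9, listed genes under that minimum, were named after their values were seen. Larger lists are shown by the 2 highest and 2 lowest ratios and by genes of known role.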

Additional observations from a re-analysis of the deposited data

Results flagged for a closer look

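The log2 ratio of Lcn2 had the opposite sign in the MG-like cluster and in some others under the same contrast. None of these differences was tested, since each group was 1 library, and outside cluster 18 the interval of the other cluster's ratio included 0. Between rd10-TMB and rd10-vehicle, the log2 ratio was 0.12 in astrocyte-like cells and 0.52 in rod-like cells, against -0.83 in MG-like cells. In endothelial-like cells the ratio to WT was -0.016 for rd10-vehicle and -0.43 for rd10-TMB (-1.72 to 0.70), against 3.77 and 2.94 in MG-like cells. The sign of the first came from the pseudocount, since the levels were 12.18 CPM in WT and 12.19 CPM in rd10-vehicle. In cluster 18 rd10-vehicle had a ratio to WT of -2.22 and rd10-TMB one of -2.38, and both rest on 46 UMIs of 1 WT cell.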

How the results depend on the processing

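No paired analysis was possible because each group was 1 pooled library. Of 105 values under alternatives, 73 stayed within the main interval or within 1.5 times the main count, 29 moved outside it and 3 changed sign. The 73 include 4 values without WT cells, which a choice of WT cells could not change. The MG-like log2 ratios kept their direction in each alternative run, from 3.65 to 5.40 for rd10-vehicle and from 2.84 to 4.57 for rd10-TMB against WT, and from -1.09 to -0.81 between the rd10 libraries.

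In the order rd10-vehicle over WT, rd10-TMB over WT, rd10-TMB over rd10-vehicle, the MG-like ratios were 4.21, 3.23 and -0.98 with the mean over cells. All cells of the library in their place gave 4.93, 4.02 and -0.91, which are values of the whole library and not MG-like ones. Without the 5% of cells with the most UMIs, the MG-like ratios were 4.73, 3.64 and -1.09. Thinned to 1000 UMIs, the ratios of rd10-vehicle to WT and of rd10-TMB to rd10-vehicle were 4.07 and -0.97. Against the 245 WT cells with an Xist UMI and none from the Y chromosome, which held 20 Lcn2 UMIs in 3 cells, they became 5.40 (rd10-vehicle) and 4.57 (rd10-TMB).

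The MG-like shares in rd10-vehicle and rd10-TMB moved to 12.6% and 6.95% at 1000 UMIs, 19.1% and 11.7% at 3000 UMIs, 19.1% and 11.5% with at least 2 UMIs, and 23.5% and 14.6% without the deepest 5%. Over all cells of the library the shares were 13.4% and 7.59%, which are not MG-like values. The astrocyte-like ratio of rd10-TMB to rd10-vehicle changed sign with the mean over cells (-0.087) and without the deepest 5% (-0.35). All cells of the library in its place gave -0.91, which is a value of mostly MG-like UMIs and not an astrocyte-like one. Thinning left too few UMIs for a bound against WT. At 1.5-fold, listed genes numbered 5 lower in rd10-vehicle than WT (1 at 2-fold), 5 lower in rd10-TMB than WT (0), 1 higher in rd10-TMB than rd10-vehicle (0) and 15 lower (2). The last count was 4 at a minimum of 20 UMIs and 1 at 200. Leaving out cells with a shared barcode, an alternative added after the data were seen, moved no value outside its interval.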

Other observations

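Other genes of the dorsal and ventral retina were read beside Aldh1a1, which marks the dorsal retina, and were picked after the values of Aldh1a1 had been seen. Efnb2, a dorsal ephrin, had r of 0.35 and 0.34 with Lcn2 over MG-like cells of rd10-vehicle and rd10-TMB and ranked 12th of 9776 genes. Tbx5, a dorsal transcription factor, had 0.23 and 0.15 and ranked 92nd. Vax2, its ventral counterpart, had -0.07 and -0.06 and ranked 9496th, while the ventral receptor gene Ephb2 had 0.14 and 0.08 and ranked 315th. Of the others read, Nr2f2 had 0.35 and 0.33 and ranked 13th, and Nr2f1 had -0.004 and 0.04 and ranked 4633rd. Efnb1 (0.09 and 0.11), Vax1 (-0.02 and -0.02) and Aldh1a3 (0.02 and -0.01) were not among the ranked genes. Like Aldh1a1, Efnb2 differed little between rd10-vehicle and WT, with a log2 ratio of -0.14 (-0.39 to 0.14), while that of Tbx5 was 0.74 (0.19 to 1.46) from 24 WT UMIs. The position of the cells in the retina was not recorded in these files.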
